A study of Mus musculus with 12 samples.

Results

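Histone genes were followed on Affymetrix arrays through male germ cell development in the mouse: type A and type B spermatogonia (type A and type B cells below), the pachytene spermatocytes of meiosis and the round spermatids that follow, 4 cell types in all. The members are the probe sets whose gene symbol in the platform annotation begins as a histone name does (Hist with a digit, H1f, H2a, H2b, H3f, H3c or H4c), chosen by name and not by signal. They came to 51 of 29855 probe sets with a gene name, and together they stand for 83 genes. Each cell type was read on 1 array of each of the 3 designs U74Av2, U74Bv2 and U74Cv2, which carry partly different genes, from total RNA. Strain, age, genotype, treatment, isolation method and purity are not given in the sources used here. Of the members 33 were on U74Av2, 12 on U74Bv2 and 6 on U74Cv2. As there is only 1 array for each pairing of cell type and design, no difference has a replicate error, no test was run, and precision is limited by the number of arrays.

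Histones are the proteins around which DNA is wound. Replication-type histone genes lie in clusters, have no introns, are transcribed in S phase, and give messages that end in a stem-loop where other messages carry a poly(A) tail. Variant histones such as H2A.Z and H3.3 come from single genes outside the clusters, are made through the whole cell cycle and have polyadenylated messages. Male germ cells have further forms of their own, and in elongating spermatids most histones give way to transition proteins and then protamines. The one-cycle labelling named in the labels starts from an oligo(dT) primer, so a message with no poly(A) tail is poorly labelled. How far this sets the signals given here was not tested.

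The members fell into 30 probe sets of replication-type genes (55 genes), 11 of variants (8 genes) and 10 of germ cell forms (20 genes). Of all members 16 carry several histone symbols, of genes whose coding sequences are nearly alike. A further mark of this is the ending of the probe set name: 17 of the 51 have an ending such as _f_at, _s_at, _i_at or _r_at, which Affymetrix gave to sets that match a gene family or were built with relaxed rules. The signal of such a set cannot be assigned to 1 gene. Signals are MAS5 units, and their trimmed means are nearly equal on all 12 arrays. A floor was set at 0.4 of the trimmed mean, 50.01 to 50.03 units, and a ratio with its lower side at the floor is a bound, written as at least so many fold.

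The median signal of an array lay between 42.6 and 75.9 units. Negative controls read at most 32.7 on U74Av2, 62.4 on U74Bv2 and 103.5 on U74Cv2, so member signals under the highest control of their own array are not told from background. The cell types were checked with marker lists. The summed signal of 7 markers of round spermatids was 265 in type A cells, 297 in type B cells, 2549 in pachytene spermatocytes and 34002 in round spermatids. That of 7 spermatogonial markers was 4315, 3290, 565 and 1250 in the same order. The 7 pachytene markers summed to 940, 827, 22750 and 27395, so that round spermatids read higher than pachytene spermatocytes. Single markers went against their lists: Sycp1, of the synaptonemal complex, read 368, 319, 220 and 454, and Spaca1, of the acrosome, was over the floor in type A and type B cells only, at 57.7 and 60.4. Sall4, of the spermatogonial list, read 248, 647, 96.8 and 588, 6.07-fold higher in round spermatids than in pachytene spermatocytes. Markers of other testis cells were present in the spermatogonia. The 6 fibroblast markers summed to 4810 in type A, 11320 in type B, 127 in pachytene spermatocytes and 370 in round spermatids. Of the leukocyte markers Ptprc and Adgre1 were under the floor in all 4 cell types. The others were read in spermatogonia: C1qa at 92.3 in type A and 189 in type B cells, Cd68 at 74.5 and 119, and Csf1r at 83 and 110. Lyz2 read 37.7, under the floor, and 102. Sertoli markers summed to 5107, 3663, 2461 and 711, myoid markers to 2460, 3615, 475 and 345, Leydig markers to 393, 681, 663 and 182 and leukocyte markers to 302, 539, 129 and 168. What RNA of other cells contributes to the histone signals was not tested.

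A smaller share of replication-type sets was read than of the other classes, whose shares were near that of all named sets. Replication-type sets exceeded the floor in at least 1 cell type in 14 of 30 cases (46.7%), variants in 8 of 11 (72.7%) and germ cell forms in 7 of 10 (70%), beside 21339 of 29855 named probe sets, which is 71.5%. All 8 variant sets over the floor were over it in all 4 cell types. Among the germ cell forms 1 was over the floor in all 4 cell types, and the 7 that were read, of 10, had their highest signal in round spermatids. Sets of H2ap, a gene placed in this class after its values were seen, are among the 7. Of the 14 replication-type sets that were read, 8 were highest in round spermatids, 3 in pachytene spermatocytes, 2 in type B and 1 in type A cells. A set over the floor in 1 cell type alone can only be highest there. This holds for sets of H1f7, H2bc1 and H2ap among the germ cell forms, and of H2bc21, H2bc22, H1f1 and H4 among the replication-type sets. The same split over all named sets is not given here, so these counts are not evidence of a direction. The 16 replication-type sets under the floor read at most 38.6 units.

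**Figure D1:**
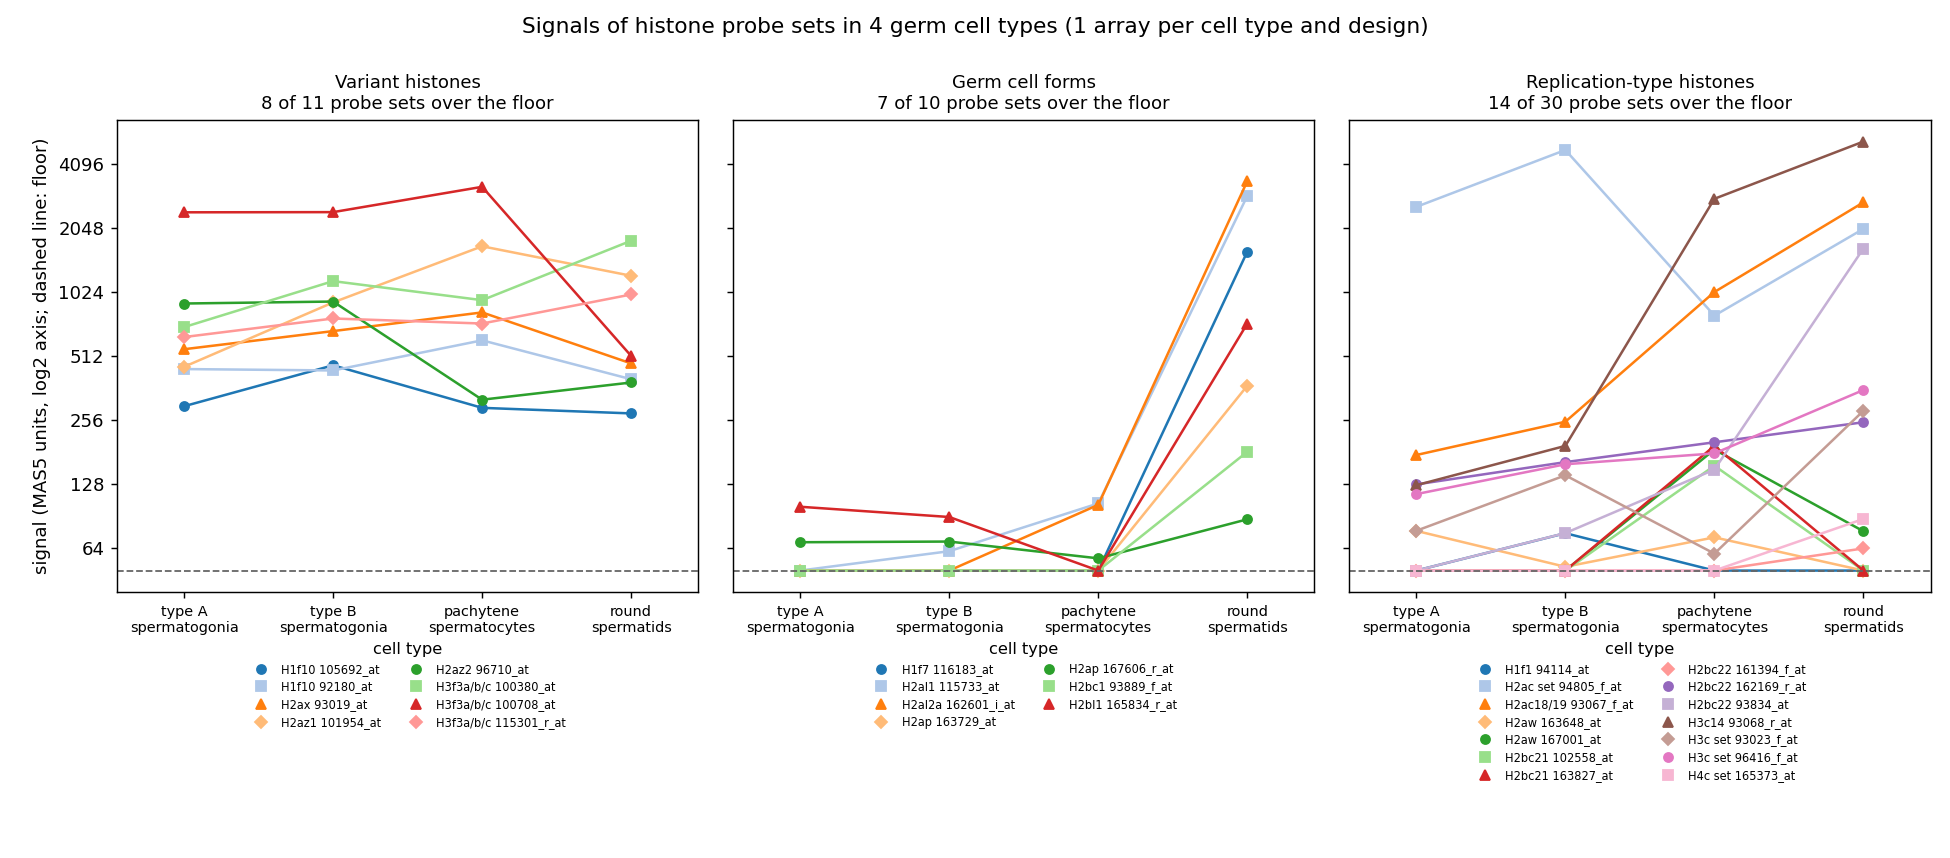
Signals in MAS5 units on a log2 axis of the 29 histone probe sets over the floor in at least 1 of the 4 cell types, on 1 array each, in 3 panels by class, with values under the floor (dashed) drawn at it. Variants stay over the floor throughout, germ cell forms reach their highest value in round spermatids, and H3c14 and the H2ac18 set are higher in pachytene spermatocytes than in type B cells while the H2A set 94805_f_at is lower.

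Of the 10 germ cell form sets, 7 of them over the floor, 5 were at least 4-fold higher in round spermatids than in each of the other 3 cell types. Among all named probe sets over the floor 2.26% met that rule. The sets of H1f7 and H2ap among the 5 were over the floor in round spermatids alone, and H2ap was placed in this class after its values were seen. The count is therefore not evidence about the class. H1f7, a linker histone of spermatids also known as H1fnt or H1T2, read 4.1 in type A cells, 8.4 in type B cells, 6.4 in pachytene spermatocytes and 1589.8 in round spermatids. It was at least 31.8-fold higher in round spermatids than in pachytene spermatocytes, and none of the earlier arrays gave a signal over the floor. H2al2a, a short H2A form of late spermatids that goes onto DNA with the transition proteins, read 13.1, 11.0, 102.0 and 3415.2 in the same order. It was 33.5-fold higher in round spermatids than in pachytene spermatocytes. Pachytene spermatocytes were at least 2.04-fold over type B cells for it, and this set ends in _i_at.

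The H2al1 genes, X-linked copies that code for another short H2A form, share the set 115733_at, which names 13 of them. It read 31.4 in type A cells, 61.7 in type B cells, 103.6 in pachytene spermatocytes and 2908.9 in round spermatids, with the type B signal just below the largest negative control reading of its array, 62.4. Round spermatids were 28.1-fold over pachytene spermatocytes. A second H2al1 set on U74Cv2, with 11 of the genes, read between 16.0 and 22.5 on all 4 arrays, so the 2 sets differ. H2ap, an X-linked short H2A gene that was placed among the germ cell forms after its values were seen, read 7.5, 9.3, 11.0 and 371.2 on U74Bv2, at least 7.42-fold higher in round spermatids than in pachytene spermatocytes. Its other set, on U74Cv2, read 68.0, 68.5, 57.1 and 87.2, and round spermatids were 1.53-fold over pachytene spermatocytes there. Only the round spermatid signal of that set exceeded every negative control of its own array, which read at most 69.1, 103.5, 61.2 and 59.0 in the same order. H2bl1, a short H2B form of condensing spermatids once named Subh2bv, read 99.9, 89.4, 43.3 and 728.5. Round spermatids were at least 14.6-fold over pachytene spermatocytes, and 7.29-fold over type A cells, the next highest. The type B and pachytene signals lay under the negative controls of their arrays, and the type A signal above them.

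Older germ cell histones gave less. H2bc1, the testis H2B known as TH2B, replaces much of the ordinary H2B from the meiotic stages on. Its family set read 15.2 in type A cells, 28.2 in type B cells, 42.2 in pachytene spermatocytes and 181.4 in round spermatids, at least 3.63-fold higher in round spermatids than in pachytene spermatocytes. H1f6, the linker histone H1t of pachytene spermatocytes, read 25.5, 31.7, 40.5 and 43.9 and so was under the floor in all 4 cell types. H1f8, the oocyte linker histone, read between 17.9 and 27.4 and was not over the floor either. Fewer cells of a type and less RNA per cell cannot be told apart in signals of bulk RNA, here or below.

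The promoters of the 5 genes with a single-gene set at least 4-fold higher in round spermatids than elsewhere are shown to set the germ cell forms beside the cluster gene H2bc22, which is described next. The sequences are those of RefSeq on GRCm38.p6, from 250 bases before to 50 bases after the start of the gene, read 5′ to 3′ on the strand of the gene. Capitals mark CCAAT and TATAAA on either strand, so that ATTGG and TTTATA are marked too. The octamer ATTTGCAT was searched for in the same way and was in none of the 5. No marked motif overlaps another here.
H1f7, chr15:98257258-98257557, minus strand: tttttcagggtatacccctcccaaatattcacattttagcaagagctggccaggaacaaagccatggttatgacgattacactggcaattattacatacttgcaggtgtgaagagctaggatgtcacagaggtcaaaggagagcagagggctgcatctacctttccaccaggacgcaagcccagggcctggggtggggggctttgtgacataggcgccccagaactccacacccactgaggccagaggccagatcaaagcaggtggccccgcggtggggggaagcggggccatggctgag
H2al2a, chr2:17996909-17997208, minus strand: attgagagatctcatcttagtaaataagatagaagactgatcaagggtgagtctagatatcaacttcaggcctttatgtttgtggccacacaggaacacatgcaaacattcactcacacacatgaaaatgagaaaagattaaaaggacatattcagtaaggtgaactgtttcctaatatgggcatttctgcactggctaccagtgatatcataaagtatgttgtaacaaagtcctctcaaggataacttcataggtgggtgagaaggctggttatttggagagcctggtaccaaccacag
H2ap, chrX:9846697-9846996, plus strand: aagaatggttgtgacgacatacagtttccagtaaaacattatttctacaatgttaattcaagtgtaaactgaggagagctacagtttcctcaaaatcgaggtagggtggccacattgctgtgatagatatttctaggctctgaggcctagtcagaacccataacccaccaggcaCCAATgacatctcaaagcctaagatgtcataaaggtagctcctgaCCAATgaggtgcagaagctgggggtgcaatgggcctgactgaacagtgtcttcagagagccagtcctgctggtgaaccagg
H2bl1, chr13:98984516-98984815, minus strand: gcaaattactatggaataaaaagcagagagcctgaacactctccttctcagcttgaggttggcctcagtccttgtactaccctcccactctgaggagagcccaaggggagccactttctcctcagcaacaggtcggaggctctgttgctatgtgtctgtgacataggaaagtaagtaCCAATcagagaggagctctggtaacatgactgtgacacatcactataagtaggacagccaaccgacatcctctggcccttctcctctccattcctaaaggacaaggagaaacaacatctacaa
H2bc22, chr13:21787238-21787537, plus strand: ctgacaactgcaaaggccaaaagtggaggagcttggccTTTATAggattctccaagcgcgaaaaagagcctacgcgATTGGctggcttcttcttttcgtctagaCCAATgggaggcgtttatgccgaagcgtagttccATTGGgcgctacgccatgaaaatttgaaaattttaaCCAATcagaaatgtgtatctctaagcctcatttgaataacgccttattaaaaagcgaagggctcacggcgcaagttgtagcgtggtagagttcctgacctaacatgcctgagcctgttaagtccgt

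The H2bc22 window holds 4 CCAAT and 1 TATAAA, that of H2ap 2 CCAAT and that of H2bl1 1 CCAAT, and those of H1f7 and H2al2a neither. Of the 83 member genes 75 had an entry, with 76 promoters. CCAAT was in 41 of 49 promoters of replication-type genes, in 5 of 7 of variants and in 5 of 20 of germ cell forms, against 37.4% of all 32851 promoters of the same length. TATAAA was in 29 of 49, 1 of 7 and 2 of 20, against 13.6% of all. ATTTGCAT, which H2B gene promoters are known for, was in 9 of 49, 1 of 7 and 1 of 20, against 1.74% of all. The H2bc1 promoter holds all 3 motifs. Genes of a cluster and the H2al1 copies share sequence, neighbouring H2A and H2B genes can share a window, and a match is not a bound site.

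Among replication-type sets a few loci gave ratios over 2-fold. H3c14, an H3 gene of the chromosome 3 cluster once named Hist2h3c1, read 126.2 in type A cells, 193.3 in type B cells, 2818.2 in pachytene spermatocytes and 5241.3 in round spermatids. Its set ends in _r_at. Pachytene spermatocytes were 14.6-fold over type B cells and round spermatids 1.86-fold over pachytene spermatocytes. The set 93067_f_at, for the neighbouring H2A genes H2ac18 and H2ac19 and a pseudogene, read 175.1, 251.2, 1025.4 and 2711.5. Pachytene spermatocytes were 4.08-fold over type B cells, and round spermatids 2.64-fold over pachytene spermatocytes. Both sets were built from 1 sequence record of this cluster, so they are not separate evidence of each other. Of the 4 other sets that list H3c14 among several H3 genes, 2 were under the floor in all 4 cell types. The third, 96416_f_at, read 114.6, 158.4, 178.2 and 354.3, and the fourth, 93023_f_at, was 2.34-fold lower in pachytene spermatocytes relative to type B cells.

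H2bc22, the H2B gene once named Hist1h2bp, had 3 sets on U74Av2. The set 93834_at read 48.7 in type A cells, 75.1 in type B cells, 149.5 in pachytene spermatocytes and 1643.7 in round spermatids, and was 11-fold higher in round spermatids than in pachytene spermatocytes. It was the only replication-type set at least 4-fold higher in round spermatids than in each other cell type. The set 161394_f_at was over the floor in round spermatids alone, at 63.6, and 162169_r_at read 127.3, 162.1, 201.0 and 249.8, 1.24-fold higher in round spermatids than in pachytene spermatocytes. All 3 were higher in round spermatids than in pachytene spermatocytes, but only 93834_at carries this. A set over the floor in round spermatids alone, as 161394_f_at was, can only be higher there. The log2 ratio of 162169_r_at, 0.31, is smaller than the SD of 0.44 of control sets at this step. The RefSeq gene H2bc22 spans 14079 bases, against 470 to 794 for the other replication-type genes with a set of their own, other than H2bc21 with 2667.

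H2bc21, an H2B gene of chromosome 3 once named Hist2h2be, was read in pachytene spermatocytes alone, on 2 designs. On U74Bv2 it read 26.2, 12.9, 193.3 and 34.0 in the 4 cell types, so that pachytene spermatocytes were at least 3.86-fold over type B cells and round spermatids at least 3.86-fold under pachytene spermatocytes. On U74Av2 it read 5.9, 25.8, 155.9 and 21.2, with ratios of at least 3.12-fold at both steps. As both sets were over the floor in pachytene spermatocytes alone, their shared direction at both steps follows from that. The ratios are bounds that give no size to compare. H2ac21, its neighbour in the cluster, read at most 27.0. H2aw, an H2A gene of chromosome 11, read 34.2, 7.1, 185.7 and 76.6 on U74Cv2, at least 3.71-fold higher in pachytene spermatocytes than in type B cells and 2.42-fold lower in round spermatids than in pachytene spermatocytes. On U74Bv2 the same gene read 76.9, 52.1, 71.7 and 16.1, where the type B signal is not told from negative controls, which reached 62.4 on that array.

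The H2A family set with the most genes was lower in pachytene spermatocytes, and the 2 large H3 family sets differed from each other there. The set 94805_f_at, which lists 13 H2A genes, H2aw among them, read 2582.0 in type A cells, 4783.7 in type B cells, 793.9 in pachytene spermatocytes and 2034.1 in round spermatids. It was 1.85-fold higher in type B than in type A cells, 6.03-fold lower in pachytene spermatocytes relative to type B cells, and 2.56-fold higher in round spermatids than in pachytene spermatocytes. It lists the non-histone gene Trim17 as well, and a set for 12 H2A genes on U74Cv2 read at most 23.2. The H3 set 93023_f_at, for 12 H3 genes with H3c14 among them, read 77.0, 140.5, 60.1 and 282.9. Pachytene spermatocytes were 2.34-fold under type B cells for it, and round spermatids 4.71-fold over pachytene spermatocytes. The first of these ratios came under 2-fold, at log2 ratios between -0.84 and -0.45, with a common median, quantile or spike-in scaling or a higher floor. The set 96416_f_at, for the same 12 genes, was 1.12-fold higher and 1.99-fold higher at these steps. Fibroblast and myoid markers also sum to more in type B than in type A cells and to less in pachytene spermatocytes, as the set 94805_f_at did. From pachytene spermatocytes to round spermatids, where that set was higher, the fibroblast sum went from 127 to 370 and the myoid sum from 475 to 345. What RNA of such cells contributes to the set was not tested.

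The remaining replication-type families were near or under the floor. H1f1, a linker histone gene of the chromosome 13 cluster, read 16.9, 75, 5.6 and 32.6 and so was over the floor in type B cells only, at least 1.5-fold higher than in type A cells. H1f2 and H1f5, of the same family, read at most 38.0 and 11.6, and H1f3 and H1f4 at most 4.7 and 2.7. The H4 set, which lists 12 of the member genes, read 28.8, 28.9, 7.4 and 87.5, at least 1.75-fold higher in round spermatids than in pachytene spermatocytes. H2B sets other than those described read at most 38.6, and H3 sets other than those described at most 33.2. Signals under the floor give no level for these genes.

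Of the 11 variant sets 8 were read in all 4 cell types, and H2aj, an H2A variant with 1 set, was read in none. H2az1, 1 of the 2 genes for H2A.Z, read 455.7 in type A cells, 915.9 in type B cells, 1683.8 in pachytene spermatocytes and 1222.8 in round spermatids. It was 2.01-fold higher in type B than in type A cells, 1.84-fold higher in pachytene spermatocytes than in type B cells, and 1.38-fold lower in round spermatids than in pachytene spermatocytes. H2az2, the second H2A.Z gene, read 905.2, 924.8, 319.0 and 384.4 and was 2.90-fold lower in pachytene spermatocytes relative to type B cells. The 2 H2A.Z genes thus went in opposite directions between these cell types, under each of the scalings tried, with log2 ratios of 0.62 to 1.65 for H2az1 and -1.81 to -0.76 for H2az2. In type B over type A cells H2az1 came under 2-fold with a common median, at a log2 ratio of 0.84, and with spike-in scaling, at 0.18. A second H2az2 set on U74Bv2 read at most 32.0. H2ax, whose protein is phosphorylated at DNA breaks and on the sex chromosomes in pachytene, read 551.4, 671.2, 822.0 and 472.6, 1.22-fold higher in pachytene spermatocytes than in type B cells and 1.74-fold lower in round spermatids than in pachytene spermatocytes.

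H3.3, the H3 variant placed outside replication, was read by 3 sets that each list H3f3a, H3f3b and H3f3c together with genes known by Gm numbers. The set 100708_at read 2433.7 in type A cells, 2438.5 in type B cells, 3208.7 in pachytene spermatocytes and 512.5 in round spermatids, 6.26-fold lower in round spermatids than in pachytene spermatocytes. The set 100380_at read 700.9, 1154.0, 938.7 and 1788.3, 1.91-fold higher in round spermatids than in pachytene spermatocytes. The set 115301_r_at read 629.2, 769.5, 728.6 and 998.3, 1.37-fold higher at that step. The annotation gives all 3 the same genes, so which H3.3 message each reads could not be settled here. A set for H3f3a alone, on U74Bv2, read at most 30.1. H1f10, a replication-independent linker histone, read 444.7, 438.0, 607.3 and 398.2 on U74Av2 and 297.2, 463.3, 292.0 and 274.9 on U74Bv2. Its sets disagreed between pachytene spermatocytes and type B cells, being 1.39-fold higher and 1.59-fold lower. The H2aj set read at most 19.2.

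Set beside all named probe sets, the members were compared at each of the 3 steps between neighbouring cell types. In type B over type A cells 20 of the 51 members were over the floor in at least 1 of the pair, and 1 was at least 2-fold higher and 0 lower, where 3.98% of 19314 named sets were higher and 4.36% lower. In pachytene spermatocytes over type B cells 24 were over the floor, with 6 higher and 3 lower, where 16.1% of 19717 named sets were higher and 21.3% lower. In round spermatids over pachytene spermatocytes 28 were over the floor, with 10 higher and 4 lower, where 9.55% of 17427 named sets were higher and 13.4% lower. Of these 10 higher sets 6 were germ cell forms and 4 replication-type sets, and none was a variant. The 4 lower ones were 3 replication-type sets, 2 of them of H2bc21, and 1 variant set, of H3.3. A set that is over the floor only where it is high enters these counts with a bound, so the shares of members are not evidence of a direction. Spike-in scaling moved the median log2 ratio of named sets over the floor to -0.73 at the first step, against 0.01, and to 0.33 at the second, against -0.27. At the first step it brought the H2A set 94805_f_at to 0.07 and H3c14 to -0.21, against 0.89 and 0.62.

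By class, and counted like those shares over the sets that were over the floor in at least 1 of the pair, 0 of 9 replication-type sets were higher and 0 lower in type B over type A cells. In pachytene spermatocytes over type B cells 5 of 12 were higher and 2 lower, which is 41.7% and 16.7%. The 5 include 2 sets of H2bc21, and the sets of H3c14 and H2ac18 that were built from 1 sequence record. They are thus not 5 independent readings, and the ratios of H2bc21 and H2aw among them are bounds. In round spermatids over pachytene spermatocytes 4 of 13 were higher and 3 lower, which is 30.8% and 23.1%. Of 8 variant sets 1 was higher and 0 lower at the first step, 0 higher and 1 lower at the second, and 0 higher and 1 lower at the third. Of germ cell forms 0 of 3 were higher and 0 lower at the first step, 1 of 4 higher and 0 lower at the second, and 6 of 7 higher and 0 lower at the third. Sets of H2ap, placed in this class after its values were seen, are among the 7, and its U74Bv2 set is among the 6. The median log2 ratio of all 30 replication-type sets was 0.00 at each step, because most were under the floor on either side of the ratio. That of the 11 variant sets was 0.03, 0.00 and 0.00, and that of the 10 germ cell forms 0.00, 0.00 and 2.38. Over all named sets it was 0.00 at each step. As a measure of spread, control sets present on all designs varied between designs with an SD of 0.26, 0.23 and 0.44 log2 units at the 3 steps. Where a gene had several sets, 17.9%, 35.3% and 30% of their pairs disagreed by over 2-fold.

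**Figure D2:**
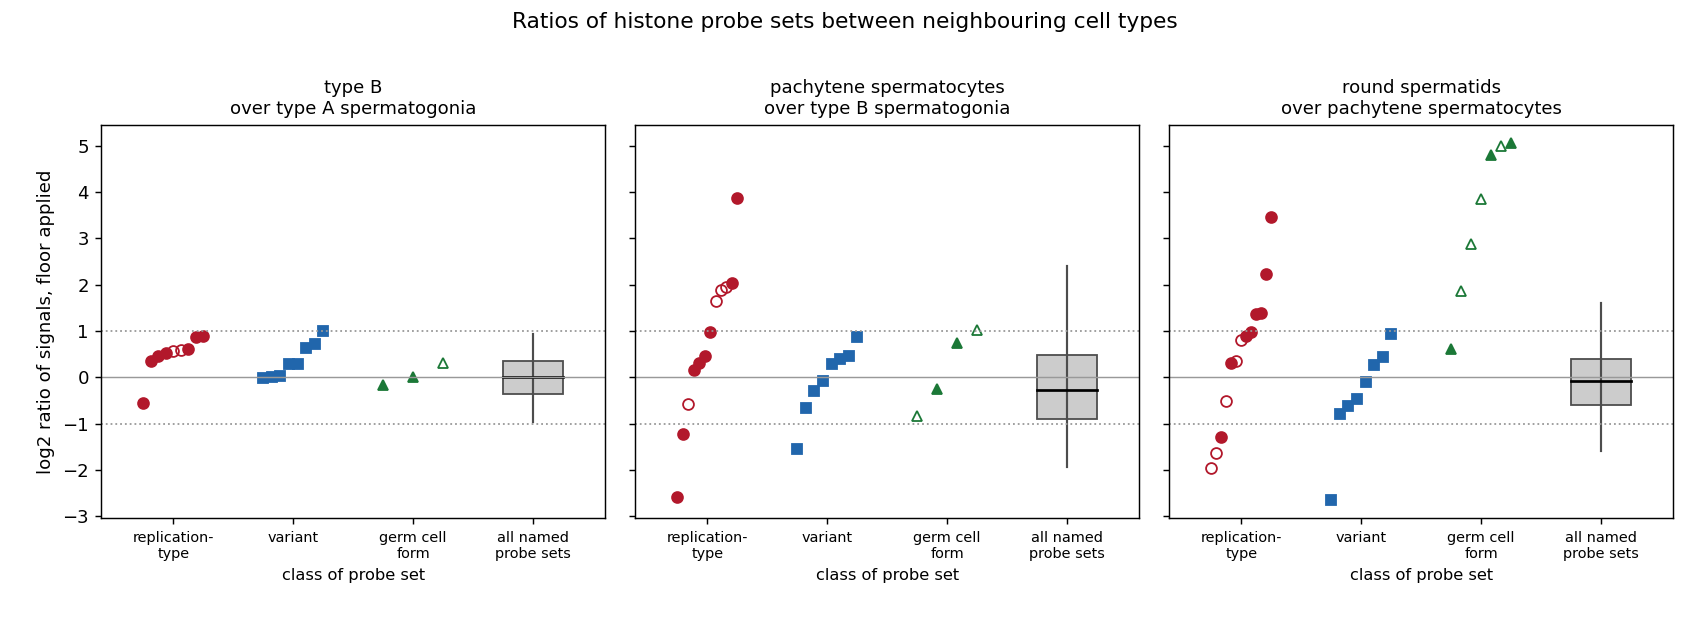
Log2 ratio of signals at the 3 steps for each histone probe set over the floor in at least 1 of the pair, by class, with open symbols for bounds, dotted lines at 2-fold, and a grey box for the quartiles and a bar for the percentiles 5 to 95 of all named probe sets. Germ cell forms reach a log2 ratio of 5.07 in round spermatids over pachytene spermatocytes, variants lie within 2-fold apart from 3 of their ratios, and replication-type sets spread from -2.59 to 3.87 in pachytene spermatocytes over type B cells.

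Genes that make, process and carry histones were taken from lists, 1 probe set per gene. Of 19 S phase genes on the arrays 10 were lower by 2-fold or more in pachytene spermatocytes relative to type B cells and 0 higher. Of all named sets 21.3% were lower and 16.1% higher at this step. The median log2 ratio of the S phase genes was -1.05, beside -0.27 over all named sets that were over the floor. Among the lower genes the helicase subunit gene Mcm2 read 50.2 in pachytene spermatocytes and 406 in type B cells, and the polymerase gene Pold1 81.4 and 507. Mcm4 and Mcm3, of the same complex, read 56 and 119 in pachytene spermatocytes and 303 and 459 in type B cells. The sliding clamp gene Pcna read 760 and 788. Under spike-in scaling 6 S phase genes were lower and 2 higher at this step. In type B over type A cells 1 was higher, Mcm6, and 0 lower, where 3.98% of all named sets were higher and 4.36% lower. In round spermatids over pachytene spermatocytes 1 was higher, the ribonucleotide reductase gene Rrm2 with 182 and 63.4, and 0 were lower. Of all named sets 9.55% were higher and 13.4% lower there.

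Of 18 genes of histone gene transcription and message processing 5 were at least 2-fold lower and 1 higher in pachytene spermatocytes than in type B cells, and the split moved to 3 lower and 5 higher under both a common median and spike-in scaling. The share that was lower is near the 21.3% of all named sets, and the median log2 ratio of -0.27 equals theirs. Casp8ap2, a protein of the histone locus body, read 64.4 in pachytene spermatocytes and 382 in type B cells. Cstf2, an X-linked cleavage factor, read 23.1 and 253 and so was under the floor in pachytene spermatocytes, Eri1, a nuclease that trims the histone stem-loop, 66.7 and 236, and Ncbp1, of the cap-binding complex, 654 and 114. Npat, the coactivator of histone genes in S phase, read 87.9 and 242. Slbp, which binds the stem-loop of the histone message, read 377 in pachytene spermatocytes and 339 in type B cells, and 114 in round spermatids. In round spermatids over pachytene spermatocytes 3 genes were lower, Cdk2, Slbp and Srrt, and 1 was higher, Casp8ap2 with 134 and 64.4. The share that was lower is near the 13.4% of all named sets, of which 9.55% were higher. In type B over type A cells 0 differed by 2-fold, but 10 were lower under spike-in scaling, which also made 8 S phase genes and 13 chaperone genes lower there.

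Of 25 histone chaperone genes, 24 of them over the floor, 3 were at least 2-fold higher and 6 lower in pachytene spermatocytes relative to type B cells. The share that was lower is near the 21.3% of all named sets, and the median log2 ratio was -0.14 beside -0.27. The split turned to 10 higher and 3 lower under spike-in scaling and 8 higher and 3 lower under a common median. Nasp, a carrier of H1 and H3, read 1156 in pachytene spermatocytes and 279 in type B cells, and the H3.3 chaperone gene Daxx 387 and 161. Mcm2, which also binds histones, was lower as given above, Rbbp7, a histone-binding subunit that is X-linked, read 268 and 1752, and Hat1, which acetylates new H4, 39 and 303. In round spermatids over pachytene spermatocytes Hat1 was at least 4.16-fold higher and 5 genes were lower, among them Nap1l1 with 65.8 and 209 and Rbbp4 with 699 and 1719. At this step 9.55% of all named sets were higher and 13.4% lower. In type B over type A cells 1 was higher, the replication chaperone gene Chaf1b with 161 and 53.1, and 1 lower, Atrx with 106 and 215. Of all named sets 3.98% were higher and 4.36% lower there. Hira, of the H3.3 deposition complex, was over the floor in type A cells only, at 92.4.

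**Figure D3:**
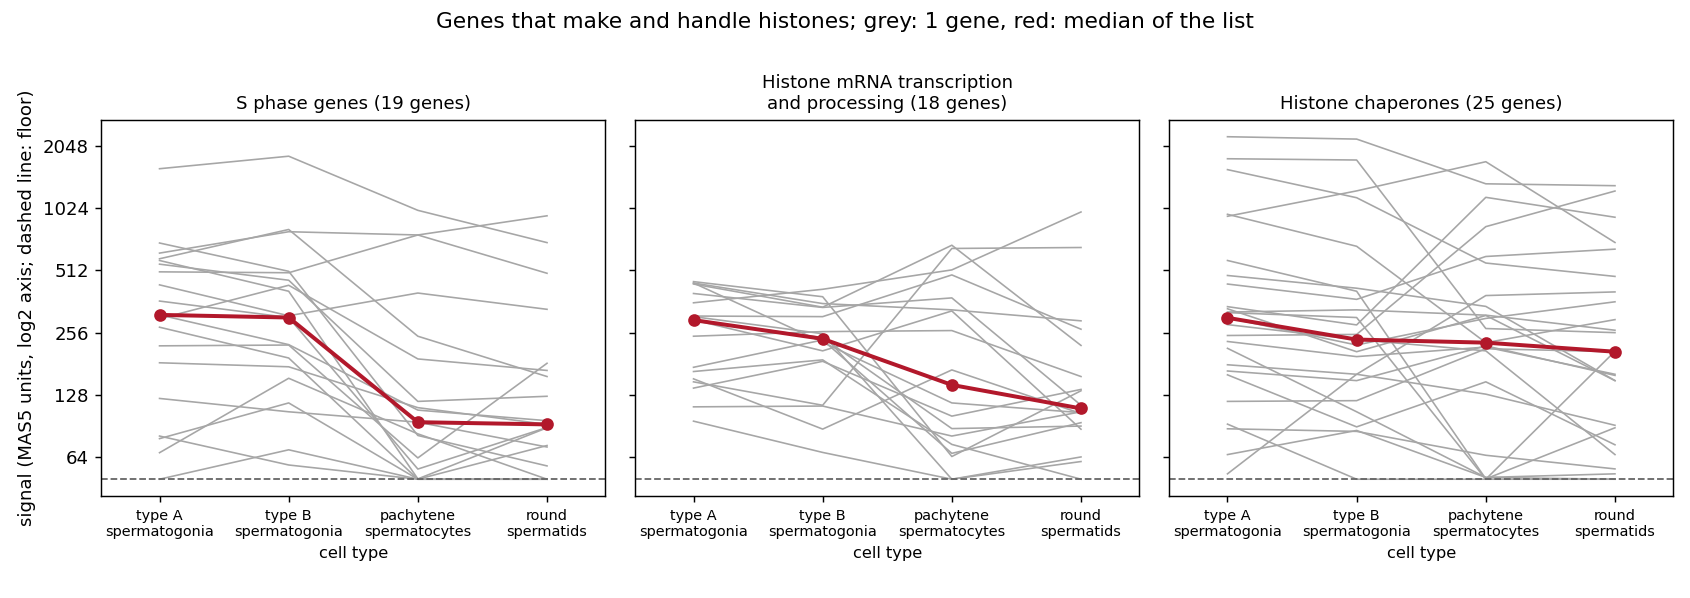
Signals in MAS5 units on a log2 axis of genes of S phase, of histone message production and of histone chaperones across the 4 cell types, 1 array each, with the median of each list in red and the floor dashed. The S phase median reads 94.4 in pachytene spermatocytes, against 303 in type B cells, and the chaperone median 229 against 237.

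Genes for the proteins that take the place of histones overlap the round spermatid markers above. In round spermatids over pachytene spermatocytes 5 of 10 genes of later sperm chromatin were at least 2-fold higher and 0 lower. At this step 9.55% of all named sets were higher and 13.4% lower, and 1 gene of the list was lower under each of the 3 other scalings. The transition protein gene Tnp2 read 10430 in round spermatids and 492 in pachytene spermatocytes, and the protamine gene Prm1 14320 and 1321. Prm3 read 2831 and 117, while Prm2 read 67.3 and 46.9. In pachytene spermatocytes over type B cells 4 were higher and 0 lower, among them Brdt, a reader of acetylated histones, with 3295 and 40.9, at least 65.9-fold. At this step 16.1% of all named sets were higher and 21.3% lower, and 6 genes of the list were higher under each of the 3 other scalings.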

How the data were processed

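Total RNA of the 4 cell types was hybridised to 3 array designs, 1 array each, and the arrays of a cell type carry different probe sets and are not replicates. The values deposited by the authors are linear intensity signals, 1 for each probe set. The submitters' processing notes name MAS5. Its version and settings are not given in the sources used here. Trimmed means (2% at each end) lay between 125.0 and 125.1 on all arrays.

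Arrays of a design were brought to the geometric mean of their trimmed means. Signals below 0.4 of that mean were set to it before log2 was taken, and ratios were formed within a design. A difference of at least 2-fold was counted, and 4-fold over each other cell type. Negative controls were over the floor in 22 of 228 readings. Gene names came from the platform annotation, in which 29131 sets had 1 symbol, 724 several and 6846 none. Gene identifiers of all 51 members were found in a RefSeq table of GRCm38.p6, which gave older names and chromosomes.

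A set with several symbols went to a class if all its histone symbols did. For other genes, the set brightest on average was used. All variants and germ cell forms were named, for replication-type sets the 3 highest of a family and up to 4 in each direction per step, and up to 4 genes of a list. H2bc21 on U74Av2, H2aw on U74Bv2, 161394_f_at, the sets given by their highest signal, Npat, Daxx, Pcna, Prm2 and Hira were named after their values were seen. The members and lists were chosen with earlier results of these data known. Alternatives changed floor, scaling, probe set choice and threshold. The computation was tested on simulated data. Python 3.11.15, numpy 2.4.6, pandas 2.3.3 and scipy 1.17.1 were used.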

Additional observations from a re-analysis of the deposited data

How the results depend on the processing

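No paired analysis was possible because each cell type has 1 array per design. A limit on these values is background: on U74Cv2 the highest negative control of an array read between 59.0 and 103.5, over the floor on all 4. Of 66 ratios of named members, 22 were at least 2-fold. Over 6 alternatives of floor and scaling these gave 132 values, of which 118 kept direction and 2-fold, 14 came under 2-fold and 0 turned. The alternatives with a lower floor or none cannot bring such a ratio under 2-fold or turn it. Some members were also named for a ratio of at least 2-fold, so the 118 overstates how firm these ratios are. Spike-in scaling moved the median of measured named sets from 0.01 to -0.73 in type B over type A cells, where H2az1 came to 0.18 (0.84 with a common median), and from -0.27 to 0.33 in pachytene spermatocytes over type B cells, where H2az2 came to -0.76 and the H3 set 93023_f_at to -0.45. A floor of 0.8 of the trimmed mean brought H2al2a at that step to 0.03. The median of replication-type sets was 0.57, -0.41 and 0.58 at the 3 steps with no floor, and 0.58, 0.73 and 0.81 with sets at the floor in both cell types left out. The median of variants was -0.25 under spike-in scaling at the first step, and at the second 0.48 under spike-in scaling, -0.30 with no floor, and 0.29 both on U74Av2 only and with 1 set per gene. At the third step it was -0.46 on U74Av2 only and with 1 set per gene. Medians were compared with the SD of control ratios. With no floor 8 replication-type sets were at least 2-fold higher and 3 lower in type B over type A cells, against 0 and 0 with it.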

Other observations

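Histone-fold and linker genes outside the naming rule were read too. Macroh2a1, a large H2A variant of silent chromatin, read 276 in type A cells, 209 in type B cells, 398 in pachytene spermatocytes and 158 in round spermatids. It was 1.91-fold higher in pachytene spermatocytes than in type B cells and 2.53-fold lower in round spermatids than in pachytene spermatocytes, and its second set, with 117, 99.6, 225 and 114, went the same way. Sets of Macroh2a2 differed, one with 987, 1682, 1659 and 1371 and another with 201, 183, 39.3 and 44.9. Hils1, a linker-like histone of spermatids, read 6.8, 10.8, 63.5 and 2193 on U74Av2, 34.53-fold higher in round spermatids than in pachytene spermatocytes, while its set on U74Cv2 read 313, 400, 307 and 409. Cenpa, the H3 variant of centromeres, read 75.6, 67.6, 59.8 and 56.7.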
